A study of Mus musculus with 15 samples.

Results

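The regions described here were bound by Dlx5 and by Sp1 in the mouse osteoblast line MC3T3-E1 and did not coincide with a reproducible site of any Sp7 form. They were chosen by overlap of peak lists. A shared region of a factor was a stretch of merged peaks, overlapping by at least 1 bp, that held a peak of both replicate lists and no peak of the FLAG control of its cell system. Members were Dlx5 shared regions that overlapped an Sp1 shared region and no shared region of Sp7 in the cell line, of the mutant labelled Sp7mut in the cell line, or of Sp7 in primary osteoblasts. These 3 sets are called Sp7 forms below. There were 884 members among 23682 Dlx5 regions, or 3.73% (95% Clopper-Pearson interval 3.49 to 3.98, which covers counting error only). They met 883 of the 8937 Sp1 regions (9.88%).

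Binding was mapped by ChIP-seq with the M2 antibody against the FLAG tag, which pulls down the tagged protein with the DNA fixed to it. MC3T3-E1 is an osteoblastic cell line, used at passages 5 to 10 and grown for 1 week in osteogenic medium with BMP-2 at 10 ng/ml, beta-glycerophosphate at 10 mM and ascorbic acid phosphate at 50 ug/ml. In these cells the tagged proteins were Dlx5, Sp1, Sp7 and Sp7mut, with 2 libraries each, and a GFP library served as FLAG control with 1. Primary calvarial osteoblasts of postnatal day 1 C57BL/6 mice carried Sp7 with the BioFL tag on both alleles (2 libraries), and wild-type cells of the same age and strain gave 1 control library. The labels do not state what the mutation in Sp7mut is, how the tagged proteins were introduced or at what level they were present, or whether replicates came from separate cultures.

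Dlx5 is a homeodomain protein of skeletal development, and proteins of its class recognise AT-rich sites built on a TAAT core. Sp1 is a broadly expressed zinc finger protein known for binding GC-rich boxes, which are common in promoters. Sp7, also called Osterix, is a relative of Sp1 that is required for osteoblasts to form, and the series' title places it beside Dlx proteins as a co-factor. The lists hold positions in mm9, without sequence or gene names, and no sequence or annotation of that build was used here, so motifs and genes at the members are not given.

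The 12 lists held between 183 peaks, in the wild-type control, and 39749, in Dlx5 replicate 2. With positions alone in the files, the read depth behind a peak is unknown. Cell line Sp7 had uneven replicates, of 18624 and 6063 peaks, and so had Sp1, with 10549 and 28210. The Dlx5 lists held 30234 and 39749 peaks and the Sp7mut lists 10519 and 14830. Per the labels, one input library served for Dlx5 and Sp7 in the cell line and a second one for Sp1 and Sp7mut. The input and the factor cannot be told apart in any comparison across these pairs.

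Sites of Dlx5 together with Sp1 were mostly also sites of an Sp7 form, and the members were the remainder. Of all Dlx5 regions, 2743 (11.6%) overlapped an Sp1 region. An Sp7 form was present at 1859 of these and absent from the 884 members, or 32.2% of the Dlx5 regions with Sp1 (95% interval 30.5 to 34.0). Among the 2743, Sp7mut met 1725 (62.9%), cell line Sp7 met 1141 (41.6%) and primary Sp7 met 91 (3.32%). Sp7mut was the only form at 704 of them, cell line Sp7 at 127 and primary Sp7 at 5. The forms had 8201 (Sp7mut), 5018 (cell line Sp7) and 2097 (primary Sp7) shared regions in all, in the same order. Shares of all Dlx5 regions were not measured for each form, and Sp7mut had the same input library as Sp1. The order of the forms is therefore not read as a trait of Dlx5 regions with Sp1. Seen from the other side, Sp1 was found at 25.7% of the 7226 Dlx5 regions with an Sp7 form and at 5.37% of the 16456 without one. These numbers follow from the overlaps that chose the members and carry no test.

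The members did not form a sharply separate set with respect to Sp7. The label holds for reproducible Sp7 regions, but 622 of the 884 members (70.4%, 95% interval 67.2 to 73.4) held a peak of at least 1 of the 6 single lists of Sp7 forms. The other 262 members (29.6%) held none, where 60.7% of all Dlx5 regions outside shared Sp7 forms held none. The most frequent list was replicate 1 of cell line Sp7, the longer of its pair, with a peak at 502 members (56.8%), against 29.5% of all Dlx5 regions outside shared Sp7 forms. Replicate 2 of Sp7, the shorter list, had a peak at 15 members (1.70%), against 1.7% of those regions. The rule used these lists, so the shares are a description.

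Both Sp7mut lists met members in a larger share than all Dlx5 regions outside shared Sp7 forms, a set that includes the members. Primary Sp7 was nearly absent. Replicate 1 of Sp7mut had a peak at 133 members (15.0%), against 3.71% of the Dlx5 regions outside shared Sp7 forms. Replicate 2 of Sp7mut had a peak at 302 members (34.2%), against 13.8%. The primary lists met 1 and 2 members, or 0.113% and 0.226%, against 0.644% and 1.06%. Peaks of both cell line Sp7 and Sp7mut, each in at least 1 list, were found at 295 members (33.4%). This share was not measured at other regions, so it is not read as a trait of the members. A peak of exactly 1 list was held by 320 members (36.2%), against 28.5% of Dlx5 regions with neither Sp1 nor a shared Sp7 form. Peaks of exactly 2 lists were held by 275 members (31.1%), against 8.69% of those regions. Only 4 members (0.452%) held peaks of 4 lists, against 0.0321%, and none held more. The wild-type control met 1 member, and the GFP control met 0 by the rule.

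**Figure D1:**
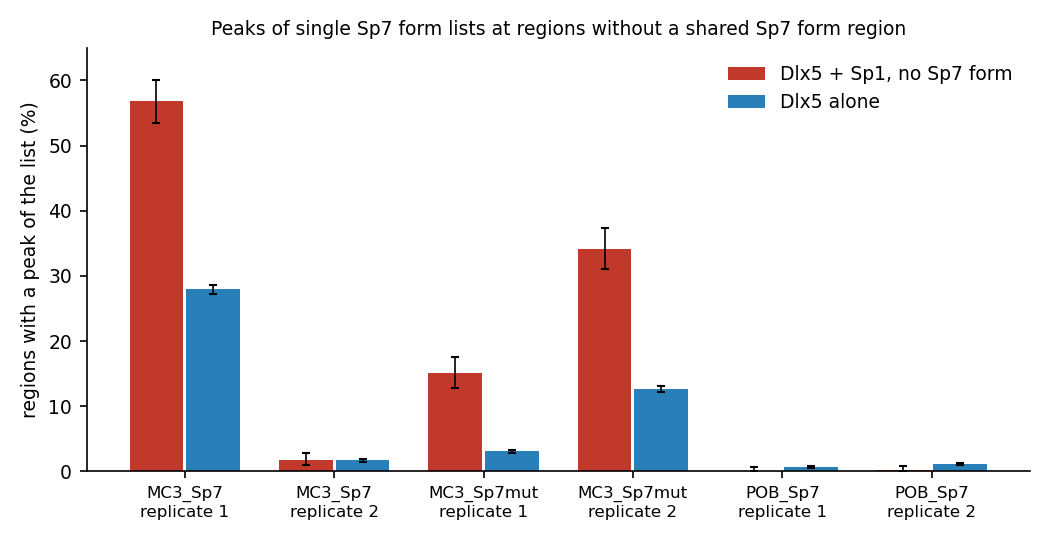
Share of regions (y axis, %) that hold a peak of each single Sp7 form list (x axis), for the 884 Dlx5 and Sp1 regions without a shared Sp7 form (red) and the 15572 Dlx5 regions with neither Sp1 nor a shared Sp7 form (blue), with 95% Clopper-Pearson intervals. Sp7 replicate 1 met 56.8% of the red and 27.9% of the blue regions, while Sp7 replicate 2 met 1.70% of each.

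Where a single Sp7 form list met a member, its peak stood past the middle of that list in the median, as at Dlx5 regions with neither Sp1 nor a shared Sp7 form, called Dlx5-alone regions. The median position in Sp7 replicate 1 was 57.6% of the way from the first to the last row (quartiles 37.1 and 74.7), and 1 of the 502 peaks stood in the first 10% of rows. The median at Dlx5-alone regions was 58.1%. At Dlx5 and Sp1 regions that had a shared Sp7 form, called triple regions below, the median position of the Sp7 replicate 1 peak was 16.2% (quartiles 7.35 and 32.8). In the Sp7mut lists, the members' peaks had medians of 66.2% and 62.4%, against 79.9% and 69.9% at Dlx5-alone regions and 28.1% and 21.6% at triple regions, which were chosen for a shared Sp7 form. Members and Dlx5-alone regions were chosen for lacking a shared Sp7 form, so these positions were not independent of the rule and carry no test. The sources used here do not state what the rows are ordered by.

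The number of members moved by over 1.5 times with each of 3 single libraries. When Sp7 replicate 2 was left out, so that 1 peak of replicate 1 sufficed for an Sp7 region, 386 members were left. When Sp1 replicate 1 was left out and the long replicate 2 list stood for Sp1 alone, there were 4600. Without Dlx5 replicate 1 there were 1419. Leaving out any other single list of Dlx5, Sp1, Sp7 or Sp7mut gave between 595 and 1169. Without replicate 1 of every group there were 4751 and without replicate 2 of every group 524. With every list held to at most its first 6063 rows, as many as Sp7 replicate 2 has, 20 of 4133 Dlx5 regions qualified (0.484%).

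The median member stood past the middle of both Dlx5 lists. In Dlx5 replicate 1 their median row position was 60.6% (quartiles 39.6 and 81.2), and in replicate 2 it was 54.7% (35.4 and 73.2). Dlx5-alone regions had medians of 49.4% and 39.7%. Triple regions had medians of 38.6% and 38.3%. The members thus had the latest median of the 3 classes in both lists, but the quartile ranges of the classes overlapped. With an overlap of at least 50% of both required, the mean of the members' 2 medians was 48.2%, against 57.6% by the rule. The first 10% of rows held 24 members in replicate 1 and 19 in replicate 2. Row position bears on whether a second list meets a peak, so it was not independent of the rule and was given no test.

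**Figure D2:**
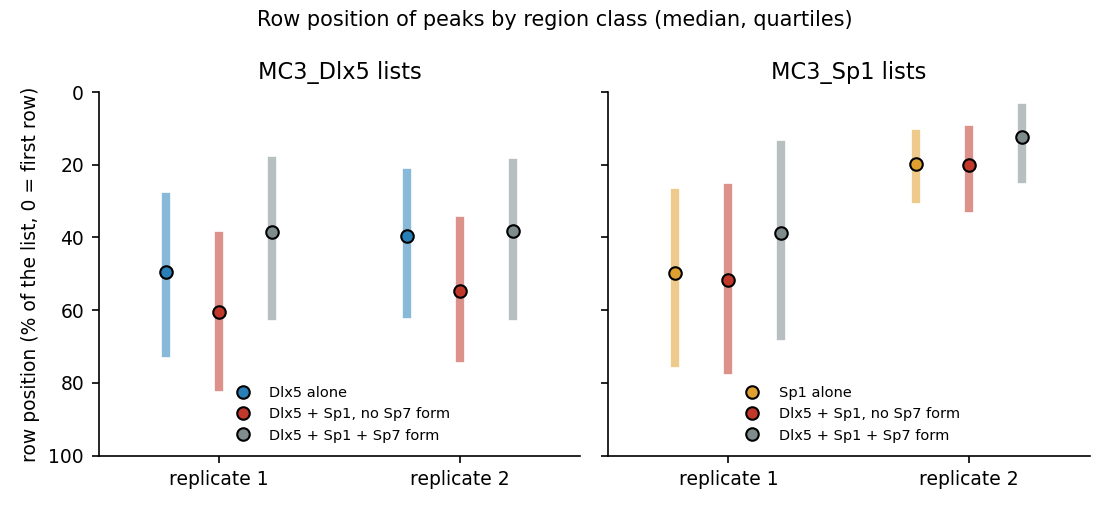
Median (point) and quartiles (bar) of row position, as a percentage of the list with 0 at the top, in the 2 Dlx5 lists (left) and the 2 Sp1 lists (right). In the Dlx5 lists the members (red) stood at 60.6% and 54.7%, later than Dlx5-alone regions (blue) and triple regions (grey), and in the Sp1 lists at 51.6% and 19.98%, next to Sp1-alone regions (yellow).

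Along the Dlx5 regions in row order, members became more frequent as Sp7 forms became rarer. Ranked by the mean position in both lists, the first 20% of the Dlx5 regions held 42 members (0.887%) and the last 20% held 373 (7.87%), with 108, 150 and 211 in the parts between. Over the same 5 parts the share with an Sp7 form fell from 65.3% to 14.9%, and the share with Sp1 rose from 8.87% to 16.2%. Among Dlx5 regions with Sp1, the share that were members rose from 10.0% to 48.7%. The rule used these overlaps, so these shares are a description of the lists.

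**Figure D3:**
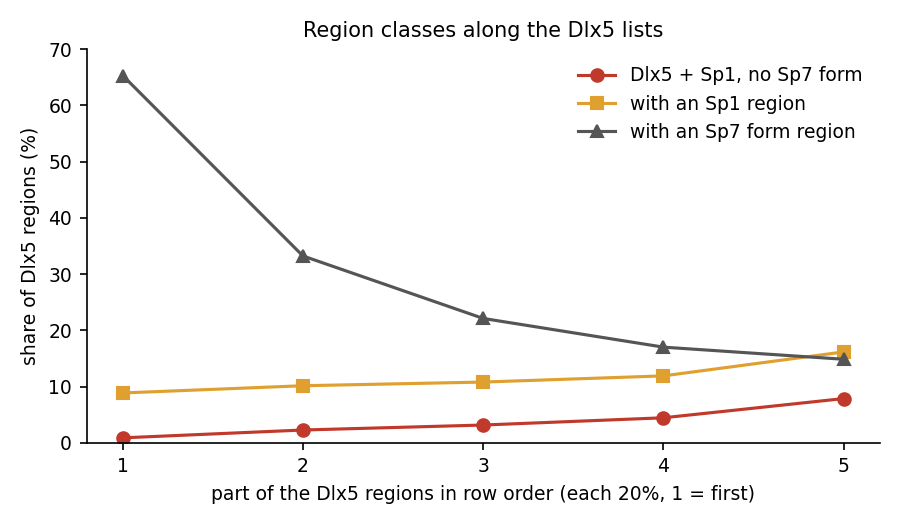
Share of Dlx5 regions (y axis, %) in successive 20% parts of the regions in row order (x axis, 1 = first) that are members (red), have an Sp1 region (yellow) or have an Sp7 form region (grey). The red line rises from 0.887% to 7.87% while the grey line falls from 65.3% to 14.9%.

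In the Sp1 lists the members had medians close to those of Sp1 regions without a shared region of Dlx5 or of an Sp7 form. Their median row position was 51.6% in Sp1 replicate 1 (829 members with a peak inside) and 19.98% in replicate 2 (849 members). Sp1 regions with neither a shared Dlx5 region nor a shared Sp7 form, called Sp1-alone regions, had medians of 49.9% and 19.9%. These names refer to shared regions only. Single lists of Dlx5 replicate 2 and Sp7 replicate 1 had a peak at 11.6% and 21.4% of Sp1-alone regions. Sp1 replicate 2 had one at 24.1% of Dlx5-alone regions. Triple regions came earlier, at 38.9% and 12.4%. Over 5 equal parts of the Sp1 regions in row order, 7.95% of the first and 13.2% of the last met a member, while the share with an Sp7 form fell from 56.3% to 26.8%. These are percentages of lists of 10549 and 28210 rows, and were not compared between the lists. With replicate 1 of every group left out, the members' median in Sp1 replicate 2 was 61.6%, and with replicate 2 left out it was 57.2% in Sp1 replicate 1; Sp1-alone regions were not measured under these settings.

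Peaks at members were somewhat wider than at the regions of either factor alone. The median width of Dlx5 peaks at members was 196 bp in replicate 1 and 190 bp in replicate 2, against 177 and 172 bp at Dlx5-alone regions and 191 and 182 bp at triple regions. For Sp1 peaks the medians at members were 164 and 158 bp, against 158 and 152 bp at Sp1-alone regions and 153 and 149 bp at triple regions. Merged over both replicates, members spanned a median of 267 bp (quartiles 202 and 372), Dlx5-alone regions 220 bp and triple regions 248 bp. A wider peak meets another more easily, so width was not independent of the rule, and no test was made.

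Within members, Dlx5 and Sp1 peaks overlapped over part of their length, and their midpoints lay farther apart than at triple regions. Over the 4 pairs of a Dlx5 and an Sp1 list, the median distance between midpoints was 73.5 to 75.5 bp at members. At triple regions it was 48.8 to 53.0 bp. The pairs reuse the same lists at the same regions, so they are not independent repeats. With the pairs of each region summarised by their median, the distance was 82.6 bp at the 884 members (quartiles 44.1 and 142) and 58.8 bp at the 1859 triple regions (quartiles 28.0 and 109), a difference of 23.9 bp. Members had the larger median on 18 of 20 chromosomes by an exact sign test, two-sided, with chromosomes as units (p = 0.000402, or 0.00241 adjusted over 6 contrasts by Benjamini-Hochberg). The chromosomes share the same libraries, so the test describes these lists and not new samples. The distance was also not independent of the rule, so the sign test cannot show a trait of the members. Classes differ by whether an Sp7 form overlaps the Dlx5 region, and 36 members had an Sp1 region on an Sp7 form that the Dlx5 region missed. Members also spanned wider regions than triple regions (median 267 against 248 bp). The result did not hold without replicate 1 of every group, where the difference was 1.5 bp (exact sign test, adjusted p = 0.316). Another setting counted a peak of any single Sp7 form list as an Sp7 form, so 622 members joined the triple regions and 262 remained. There the difference was 24.6 bp and missed the threshold (exact sign test, adjusted p = 0.0709). With an overlap of at least 50% of both required, the difference was 10.3 bp and passed the test (exact sign test, adjusted p = 0.00024).

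**Figure D4:**
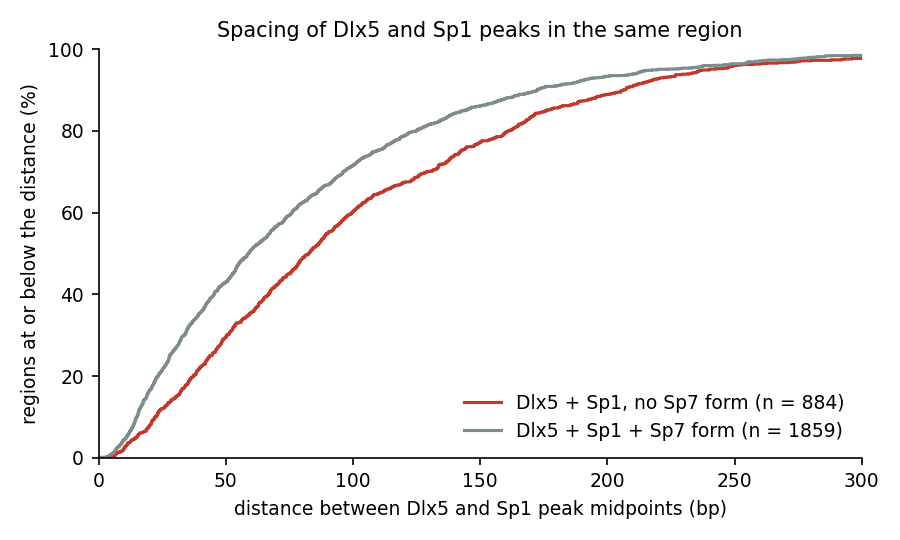
Share of regions (y axis, %) whose distance between Dlx5 and Sp1 peak midpoints (median over the pairs of lists) is at or below the value on the x axis (bp), for members (red, n = 884) and triple regions (grey, n = 1859). The red curve lies to the right of the grey one over most of its height, with medians of 82.6 and 58.8 bp.

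The wider spacing at members was found in each part of the Dlx5 lists, and Dlx5 to Sp1 distances exceeded those between replicates of a factor. Dlx5 midpoints of the pair of replicates lay a median of 40.5 bp apart at members and 33.0 bp at triple regions, and Sp1 midpoints 27.8 and 21.5 bp. In 5 equal parts of the Dlx5 regions in row order, members exceeded triple regions by 16.1, 23.6, 21.0, 29.5 and 11.5 bp, with 42 members in the first part. Restricting both classes to regions with exactly 1 peak in each of the 4 lists left 706 members at 69.5 bp and 1596 triple regions at 52.3 bp (members larger on 17 of 20 chromosomes, exact sign test p = 0.00258, unadjusted). Taking the closest pair of peaks in each region gave 78.4 and 57.0 bp. Region width was not held fixed in any of these settings, and the cause of the wider spacing was not tested. At members, 12.0% of regions had their midpoints within 25 bp and 39.7% had them more than 100 bp apart, against 21.7% and 28.3% at triple regions.

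The overlap of the merged regions ranged from 1 to 648 bp at members, with a median of 152 bp (quartiles 104 and 198). It covered at least 50% of the Dlx5 region at 530 members (60.0%), against 67.4% of triple regions. Just inside the rule, 12 members shared at most 10 bp with their Sp1 region. Just outside it, 12 Dlx5 regions without an Sp7 form lay within 10 bp of an Sp1 region without touching it, and 120 lay within 100 bp. Next to the other limit, 6 members lay within 10 bp of a region of an Sp7 form and 99 within 1000 bp. At 36 members (4.07%), the Sp1 region overlapped an Sp7 form that the Dlx5 region missed. Requiring at least 50% of both to overlap, within a factor and between factors, left 315 members of 17657 Dlx5 regions (1.78%).

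Most members had no other member nearby. Of the 884, 858 had none within 10 kb, and the remaining 26 formed 13 pairs. The count for a set of other Dlx5 regions of like size was not measured, so this is not read as a trait of the members. All but 1 member met exactly 1 Sp1 region. Other Dlx5 regions were common nearby: 42.8% of members (95% interval 39.5 to 46.1) had one within 10 kb, where 48.1% of all Dlx5 regions did. The share was 46.6% at Dlx5-alone regions and 49.2% at triple regions, and neither difference passed the test (members lower on 13 and 14 of 20 chromosomes, exact sign test, adjusted p = 0.526 and 0.346). Within 5 kb the difference of -2.93 percentage points from Dlx5-alone regions passed it (exact sign test, adjusted p = 0.0236), and so did that of -7.41 points from triple regions without replicate 1 of every group (adjusted p = 0.00121). The direction turned against Dlx5-alone regions without replicate 2 of every group, to 0.898 points, and against triple regions with an overlap of at least 50% of both, to 5.20 points, neither past the test (exact sign test, adjusted p = 0.824 and 0.420).

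Other Sp1 regions lay within 10 kb of 25.7% of members (95% interval 22.8 to 28.7), where 19% of all Dlx5 regions had one. Sp1-alone regions had another Sp1 region at that distance in 23.2% of cases and triple regions in 28.0%. Members were higher on 11 and on 9 of 20 chromosomes (exact sign test, adjusted p = 0.824 for both). Within 5 kb the difference of -2.24 percentage points from triple regions passed the test (exact sign test, adjusted p = 0.0236), but with an overlap of at least 50% of both the direction turned, to 4.15 points at 10 kb (exact sign test, adjusted p = 0.420). Without replicate 1 of every group the direction against Sp1-alone regions turned, to -5.60 percentage points (exact sign test, adjusted p = 0.00121).

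A region of an Sp7 form stood within 10 kb of 27.7% of members (95% interval 24.8 to 30.8), where 27.3% of all Dlx5 regions had one that they did not overlap. Dlx5-alone regions, which also lack an Sp7 form by rule, had one in 24.3% of cases. The difference of 3.38 percentage points did not pass the test (members higher on 11 of 20 chromosomes, exact sign test, adjusted p = 0.824). It was 5.83 points without replicate 1 and 14.6 points without replicate 2 of every group, and passed the test in both (exact sign test, adjusted p = 0.00515 and 0.0355).

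The share of Dlx5 regions that were members varied over the chromosomes. It was highest on chromosome 11, with 99 members (5.78% of its Dlx5 regions, 95% interval 4.72 to 6.99), and above 5% also on chromosome 19 with 45 members (5.34%), chromosome 17 with 71 (5.25%) and chromosome 7 with 52 (5.02%). It was lowest on chromosome 18, with 16 members (2.26%, 95% interval 1.30 to 3.65), and chromosome 16, with 25 (2.5%). The share of Dlx5 regions with Sp1 was likewise highest on chromosome 11 (17.9%) and was 5.66% on chromosome 18. Members made up 24.2% of the Dlx5 regions with Sp1 on chromosome 6 and 47.2% on chromosome 13. The X chromosome held 8 members of 13 Dlx5 regions with Sp1, and no member lay on Y, which held 3 Dlx5 regions. These are counts on single chromosomes, given without a test.

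**Figure D5:**
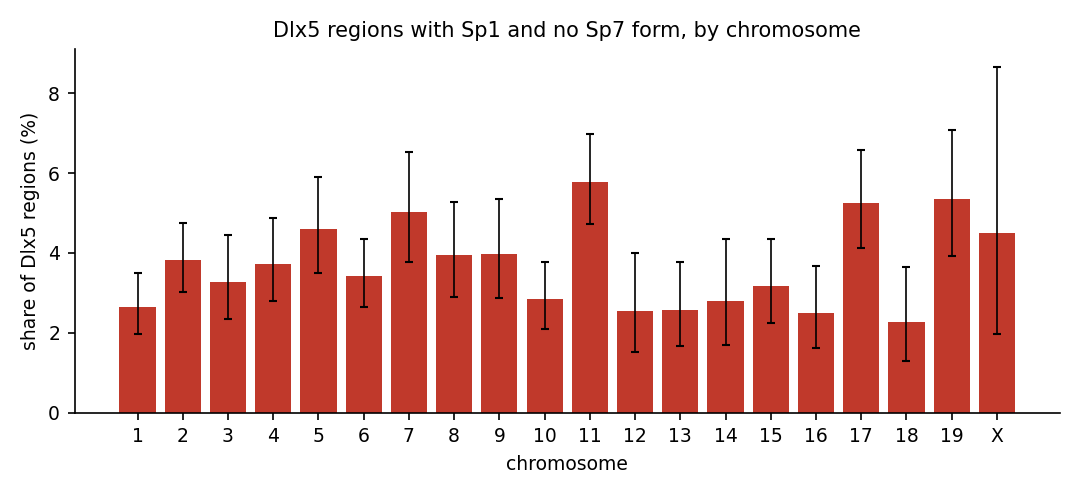
Members as a share of Dlx5 regions (y axis, %) on each autosome and on X (x axis), with 95% Clopper-Pearson intervals. The bars reach from 2.26% on chromosome 18 to 5.78% on chromosome 11, and X holds 8 members.

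The members without any Sp7 form peak were set beside the others. The 262 members with no peak in any Sp7 form list had median row positions of 66.4% and 58.7% in the Dlx5 lists, and the 622 with a peak in at least 1 list had 59.0% and 53.1%. Their Sp1 peaks stood at 59.0% and 22.1%, against 50.6% and 19.1%. The merged regions spanned a median of 249 and 276 bp. Midpoints of Dlx5 and Sp1 lay a median of 89.1 and 78.9 bp apart, and an Sp7 form region stood within 10 kb of 26.0% and 28.5%. The split was made on the same lists as the rule, so no test was run between these subsets.

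The members that stood highest in all 4 lists were named by their mean row position, among the 794 members with a peak of every Dlx5 and Sp1 list inside (89.8%). The first was chr17:85356329-85357176 (mm9), at row 2906 and 5179 of the Dlx5 lists and row 756 and 1229 of the Sp1 lists. It was wide, 848 bp, but its Dlx5 and Sp1 regions shared only 135 bp, and it held late peaks of Sp7 replicate 1 (row 10100) and Sp7mut replicate 2 (row 11153). The second, chr6:85401293-85401506, stood at row 279 and 264 in the Sp1 lists and at row 4671 and 8230 in the Dlx5 lists. It held peaks of Sp7 replicate 1 (row 16365) and Sp7mut replicate 1 (row 4363), and a region of an Sp7 form lay 366 bp away. The third, chr19:25036304-25036492, had Dlx5 rows 5687 and 6573 and Sp1 rows 547 and 1351, and held a peak of Sp7mut replicate 1 (row 4486).

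Among these 10 leading members, 4 had no peak of any Sp7 form list, as had 29.6% of all members. The highest of the 4 was chr19:7280720-7280868, at row 4012 and 2973 for Dlx5 and row 2017 and 1691 for Sp1, with its 4 midpoints within 16.5 bp. The others were chr6:124755882-124756232, chr19:47141821-47142107 and chr8:4166126-4166476. The first of these 3 had its nearest Sp7 form region 116 bp away. The remaining leading members were chr13:97157972-97158169, chr7:106976936-106977091 and chr7:20335010-20335176, each with a peak in Sp7 replicate 1. Of the 10, 5 held such a peak and 5 held a peak of an Sp7mut list. Over all members, Sp7 replicate 1 met 56.8% and the Sp7mut lists met 15.0% and 34.2%, with 28 members (3.17%) met by both Sp7mut lists. The count among the 10 took a peak of either Sp7mut list, so it is not comparable with the share of a single list.

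Ranked by peak width, the 5 leading members all held a peak of Sp7 replicate 1, as did 56.8% of all members. They were picked for wide peaks, which meet other peaks more easily. The first of the 5, chr6:113116706-113117194, had Dlx5 peaks of 412 and 456 bp and Sp1 peaks of 250 and 417 bp. It also held peaks of both Sp7 lists (rows 7227 and 4347) and of both Sp7mut lists (rows 7239 and 11029), although neither form had a shared region overlapping it. The others were chr15:80541043-80541561, chr3:30894242-30894654, chr18:35113945-35114552 and chr17:34740574-34740927. The members with the tightest placement were a different set. At chr9:118834520-118834741 the 4 midpoints lay within 2.5 bp, with no Sp7 form peak, at row 21279 and 36736 for Dlx5 and row 2019 and 2683 for Sp1. The next were chr19:53469190-53469284 (7 bp), chr11:69208910-69209022 (9 bp), chr10:126558183-126558331 (11 bp) and chr9:78435770-78435998 (11.5 bp). The last of these stood at row 106 and 216 of the Sp1 lists but at row 22960 and 17290 of the Dlx5 lists, and no Sp7 form list met it.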

How the data were processed

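Each deposited list gives chromosome, start and end of the authors' peaks in mm9 (build per the submitters' processing notes). There are 12 lists, each from a single library, and 3 further samples are inputs. No score is given. Aligner and peak caller: not given in the sources used here. Inputs are paired with libraries per the labels; that of the GFP control is not stated.

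Groups came from sample titles. Where a list had several peaks in a region, the one in the earliest row was used. Peaks that touch without sharing a base were kept apart; merging them gave 886 members. Distances and neighbours were compared by an exact two-sided sign test over 19 autosomes and X (medians or shares per chromosome), adjusted by Benjamini-Hochberg over 6 contrasts, with an adjusted p of 0.05 as threshold. The planned tests of row position and width were not made, because both bear on overlap. Midpoint distance also bears on overlap, so its test describes the lists only. Base composition, motifs, distance to starts and gene lists were not analysed here, for want of mm9 sequence and annotation. Members, lists and tests were chosen with earlier results of these data known. Regions were named as the 10 best by mean row position, 5 by width and 5 by midpoint range. The code was tested on simulated lists. Analyses ran in Python 3.11.15 with pandas 2.3.3, scipy 1.17.1, matplotlib 3.10.9 and numpy 2.4.6. Coordinates are 1-based.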

Additional observations from a re-analysis of the deposited data

How the results depend on the processing

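No paired analysis was possible because no result comes from a fit across libraries. The number of members and their share of Dlx5 regions were 315 and 1.78% with an overlap of at least 50% of both, 215 and 3.27% with the wider 50% of each list, 167 and 1.39% with the earlier 50%, 262 and 1.11% with no peak of any single Sp7 form list allowed, and, chosen after seeing the data, 20 and 0.484% with the first 6063 rows. Keeping control peaks gave 892 and 3.75%. Leaving out replicates gave 386 to 4751 members (1.63% to 19.4%). Row position and peak width are given here as the mean of the members' medians in the 2 replicate lists. With replicates left out, they are the median in the 1 list that remained. The position in the Dlx5 lists, 57.6% as reported, was 48.2% with 50% overlap and 62.6% with no Sp7 form peak. With replicates left out it was 58.0% in replicate 2, against 54.7% there by the rule, and 73.0% in replicate 1, against 60.6%. In the Sp1 lists, 35.8% as reported, it was 61.6% in replicate 2, against 19.98% there by the rule, and 57.2% in replicate 1, against 51.6%. Dlx5 peak width, 193 bp as reported, was 189 bp with no Sp7 form peak. With replicates left out it was 174 bp in replicate 2, against 190 bp there by the rule, and 199 bp in replicate 1, against 196 bp. Sp1 width, 161 bp as reported, was then 154 bp in replicate 2, against 158 bp, and 169 bp in replicate 1, against 164 bp. The difference in midpoint distance from triple regions was 1.5 to 18.0 bp with replicates left out. It was 24.6 bp, past no threshold, with no Sp7 form peak allowed, where the 622 members left out counted as triple regions. At 50% overlap it was 10.3 bp and kept its call. With 50% overlap, the neighbour shares turned to 5.20 (Dlx5) and 4.15 (Sp1) percentage points above triple regions, neither past the test. Within 5 kb, -2.93 points (Dlx5, against Dlx5-alone) and -2.24 points (Sp1, against triple regions) passed it. With replicates left out, Dlx5 neighbours differed by -0.818 to 0.898 points from Dlx5-alone and -7.41 to -3.10 from triple regions, Sp1 neighbours by -5.60 to 0.129 from Sp1-alone and -1.99 to -0.605 from triple regions, and Sp7 form neighbours by 5.83 to 14.6 from Dlx5-alone. Leaving out a replicate also means that 1 peak suffices, in lists of other lengths; the cause of each shift was not tested. Alternatives that need mm9 sequence or annotation were not run. Read depth is unknown, so absence from a list is not absence of binding.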
